A study of Saccharomyces cerevisiae with 12 samples.

Results

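Tye7 and Cbf1 of Saccharomyces cerevisiae were compared by where each steered insertions of the Ty5 retrotransposon, as full-length proteins with Sir4 attached. The comparison used the 2 libraries that the labels give to these factors, of 12 libraries in the series. The Tye7 library came from BY4741 cells with SIR4 and TYE7 deleted (sir4D tye7D), and the Cbf1 library from BY4741 cells with SIR4 and CBF1 deleted (sir4D cbf1D). Sir4 was joined to the C-terminus of each factor on a plasmid, and a second plasmid carried Ty5 with a HIS3 marker behind the galactose-induced GAL1/10 promoter; no promoter of the factor itself is labelled for either library. Cells grew from a single clone on galactose for 3 days and were replica-plated to YPD for 2 days and to plates lacking histidine with 5-FOA for 3 days, so each library is 1 clone of 1 strain. BY4741 is a laboratory strain that also lacks function of HIS3, LEU2, URA3 and MET17. A further pair of libraries, TEF1p-Tye7 (BY4741 sir4D, Tye7 behind the TEF1 promoter, TYE7 not listed as deleted) and Cbf1 bHLH-ZIP (BY4741 sir4D cbf1D, the DNA-binding and zipper part of Cbf1 alone), served as a second reading of the same contrast.

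Tye7 and Cbf1 are basic helix-loop-helix (bHLH) factors, which bind DNA as dimers and recognise E-box motifs with the core CACGTG or close variants. Cbf1 is known for its place at centromeres and for recruiting Met4 to genes of sulfur assimilation, and Tye7 for activating glycolytic genes together with Gcr1 and Gcr2. In a calling card assay the Sir4 part of the fusion brings the Ty5 integrase to places where the factor sits, and Ty5 then inserts nearby rather than in the site itself. Each mapped insertion is a mark left during the galactose growth. How large a part of all intergenic insertions fell in a region is therefore a measure of its use, beside insertions that no factor directs.

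The Tye7 library held 24003 insertions and the Cbf1 library 34773. Of these, 16000 (66.7%) and 27141 (78.1%) lay in the 4532 intergenic regions of the authors' tables, against 66271 in the deposited background set. Regions with 10 or more insertions over both libraries, 759 in all, were tested by Fisher's exact test (two-sided) on insertions inside and outside each region. A call needed a Benjamini-Hochberg adjusted p under 0.05 and shares that differed by a factor of 2 or more, and 205 regions (27%) passed as higher in Tye7 and 151 (19.9%) as lower. With 1 library a side these tests compare 2 libraries, not conditions, and no replicate checks them. Intervals below are exact, at 95%, and cover counting error only.

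Levels against the background set split the calls into separate kinds. A region was taken as bound where the authors' Poisson p-value, adjusted over all regions, was under 0.01 and at least 5 insertions lay in it, which held for 17 regions (0.375%) of Tye7, for 177 (3.91%) of Cbf1 and for 3 of both. The 16 higher regions that Tye7 bound had a median share of 8.64 times background in Tye7 and 0.371 times in Cbf1. The other 189 higher regions were bound in neither library, with a median of 1.14 times background in Tye7 and 0.248 times in Cbf1. As shares of all intergenic insertions, Tye7 thus lay near the background level in those 189 regions and Cbf1 below it. Over all 759 tested regions the medians were 0.914 times in Tye7 and 0.529 times in Cbf1. Of the 151 lower regions 147 were bound by Cbf1, at a median of 0.69 times background in Tye7 and 6.41 times in Cbf1.

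Regions bound in neither library took 71.2% of the Tye7 insertions, 31.6% of the Cbf1 insertions and 90.3% of the background set. Shares taken relative to these regions move every log2 ratio by -1.17, and the calls become 31 higher (4.08%) and 225 lower (29.6%). All regions tested had a median log2 ratio of 0.76 before that change and -0.41 after it, so whether a region with a small positive ratio is called depends on the scale. With insertions merged into 1 wherever each lay within 5 bp of the one before, the calls become 27 higher and 91 lower. A chain of such insertions counts as 1 whatever its length, so merging lowers densely filled regions most. Where a region described by name loses its call this way, this is given with its list or its values.

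The insertion lists are built of 6 sorted blocks for Tye7 and 4 for Cbf1, referred to as runs, and no label describes them. In 68 of the 205 higher regions and 115 of the 151 lower ones, every run of Tye7 lay on the same side of every run of Cbf1; over all 759 regions, called or not, this held for 74 (9.75%) and 117 (15.4%). No run lists a position more than 2 times, so a position can enter at most 12 times in Tye7 and 8 times in Cbf1, and 63 positions of Cbf1 stood at that ceiling. Counts in the fullest regions are limited from above by this: the 1099 Cbf1 insertions of IDH1-NCE103 used 383 positions in 813 bp. A DNA molecule recovered in several runs would be listed several times, which was not tested.

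**Figure D1:**
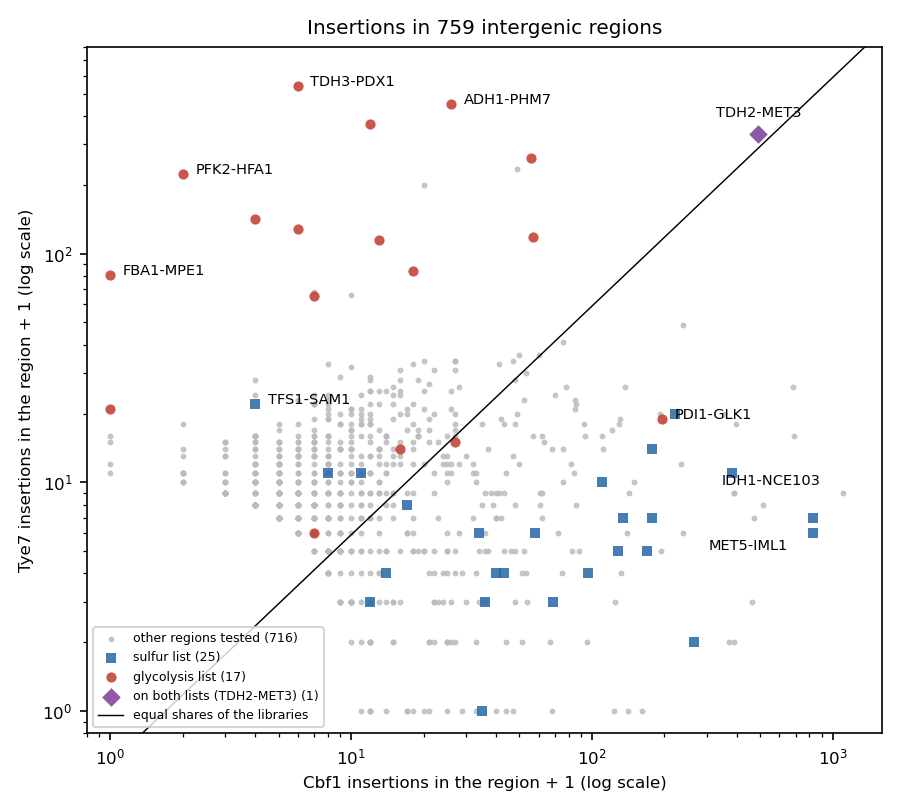
Insertions of Tye7 (vertical) and Cbf1 (horizontal) in each of 759 regions, both with 1 added and on log scales; the line marks equal shares of the 2 libraries. Glycolysis regions such as TDH3-PDX1 (541 and 5 insertions) stand at the upper left, sulfur regions such as MET5-IML1 (5 and 827) at the lower right, and TDH2-MET3, on both lists, lies near the line with 333 and 487.

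Promoters of glycolysis and ethanol formation made up most of the regions that Tye7 bound, though a small part of the 205 regions called higher. Regions are named by the genes at their left and right edge and counted as upstream of a gene whose start faces them. The list of 21 genes had 20 regions, 18 of them tested. In Tye7 13 were higher (72.2%, against 27% over all 759 regions) and 1 lower (5.56%, against 19.9%). Their median log2 ratio was 3.94, against 0.76 over all 759 regions. Scaling on regions bound in neither leaves 12 higher and 2 lower, and merging leaves 11 higher and 0 lower, without PUP2-ENO1 (log2 ratio 0.66), PEP8-TDH1 (0.21) and the lower PDI1-GLK1 (-0.61). Together the regions took 18.6% of insertions in Tye7 (interval 18 to 19.3) and 3.42% in Cbf1 (3.21 to 3.65), beside 1.68% of the background set. Of the 17 regions that Tye7 bound, 13 were on this list.

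At the entry to the pathway the glucokinase region differed from most of the list. PDI1-GLK1, upstream of glucokinase, held 18 insertions of Tye7 and 195 of Cbf1, and was the 1 glycolysis region called lower (6.39-fold, interval 3.94 to 11; exact test, adjusted p 1.42e-20). HXK2, for a hexokinase, had 7 and 2 insertions in its region, a ratio of 5.94 (1.13 to 58.6), with too few for the test. PGI1-TAF5, upstream of phosphoglucose isomerase (chromosome 2, 613895 to 616122), held 369 of Tye7 and 11 of Cbf1, 2.31% and 0.0405% (log2 ratio 5.71; exact test, adjusted p 3.34e-140). PGI1 acts just after these enzymes in the pathway.

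Both subunits of phosphofructokinase, the enzyme that commits sugar to glycolysis, had regions with more Tye7. PFK2-HFA1 (chromosome 13, 674765 to 677192) held 221 insertions of Tye7 and 1 of Cbf1, and each of the 6 Tye7 runs, at 1.01 to 1.83%, exceeded each Cbf1 run, at 0 to 0.00838%. PFK1-YAP1802 held 83 and 17, or 0.519% and 0.0626%, 8.28 times as large a share in Tye7 (4.87 to 14.9, with an adjusted p of 7.83e-20 in the exact test). Both calls went the same way, with the larger gap at PFK2. Aldolase and triose phosphate isomerase come next in the pathway. FBA1-MPE1 held 80 and 0 insertions, at least 45.2-fold higher in Tye7 when 3 insertions are allowed to Cbf1, and TPI1-DBF4 held 20 and 0, at least 11.3-fold higher. TPI1-DBF4 was the 1 region of the 13 that was not bound by Tye7 over background.

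TDH1, TDH2 and TDH3 encode glyceraldehyde-3-phosphate dehydrogenase, and their regions ran from a strong call for Tye7 to none. TDH3-PDX1 (chromosome 7, 883815 to 884514) was the fullest region of Tye7, with 541 insertions against 5 of Cbf1, and Tye7 runs at 2.65 to 3.93% beside Cbf1 runs at 0 to 0.055%. PEP8-TDH1 held 117 and 56, a share 3.54 times as large in Tye7 (2.56 to 4.96, with an adjusted p of 9.13e-15 in the exact test), and was bound in both libraries. TDH2-MET3 held 333 and 487, or 2.08% and 1.79%, and was not called (ratio 1.16, interval 1.01 to 1.34; exact test, adjusted p 0.0752). When shares were scaled on regions bound in neither, the log2 ratio of PEP8-TDH1 was 0.64, under the ratio of 2, and that of TDH2-MET3 was -0.96.

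Below TDH, phosphoglycerate kinase broke the pattern: ADP1-PGK1 held 14 insertions of Tye7 and 26 of Cbf1, with no call (log2 ratio -0.09; exact test, adjusted p 0.92). It was bound by Cbf1 and not by Tye7. This region also serves ADP1, and the Cbf1 insertions lay on the ADP1 side. Of them 96.2% were within 500 bp of the ADP1 start and 7.69% within 500 bp of the PGK1 start. GPM1-MCR1, upstream of phosphoglycerate mutase, held 64 and 6 (ratio 18.1, 7.87 to 51.1). The enolase genes both had more Tye7, with 261 and 55 insertions in PUP2-ENO1 and 141 and 3 in SPC97-ENO2. CYC3-CDC19, upstream of the main pyruvate kinase, held 114 and 12, while the region of the minor pyruvate kinase gene PYK2 held 5 and 6. PYK2 was not called, so of the pyruvate kinase genes 1 had a region with more Tye7.

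Fermentation of pyruvate to ethanol showed the same split. PDC1-STU2, upstream of the main pyruvate decarboxylase, held 127 insertions of Tye7 and 5 of Cbf1 (ratio 43.1, 18 to 135; exact test, adjusted p 1.37e-46). PDC5 had 4 and 2 insertions in its region, and PDC6-CTT1 held 13 and 15 with no call. ADH1-PHM7, upstream of the alcohol dehydrogenase that makes ethanol (chromosome 15, 160594 to 162356), held 451 and 25, with Tye7 runs at 2.58 to 3.3% and Cbf1 runs at 0.0803 to 0.0999%. Its Cbf1 share equalled the background share, 1 time background, against 30.6 times in Tye7. Medians over all tested regions were lower, at 0.529 times in Cbf1 and 0.914 times in Tye7.

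**Figure D2:**
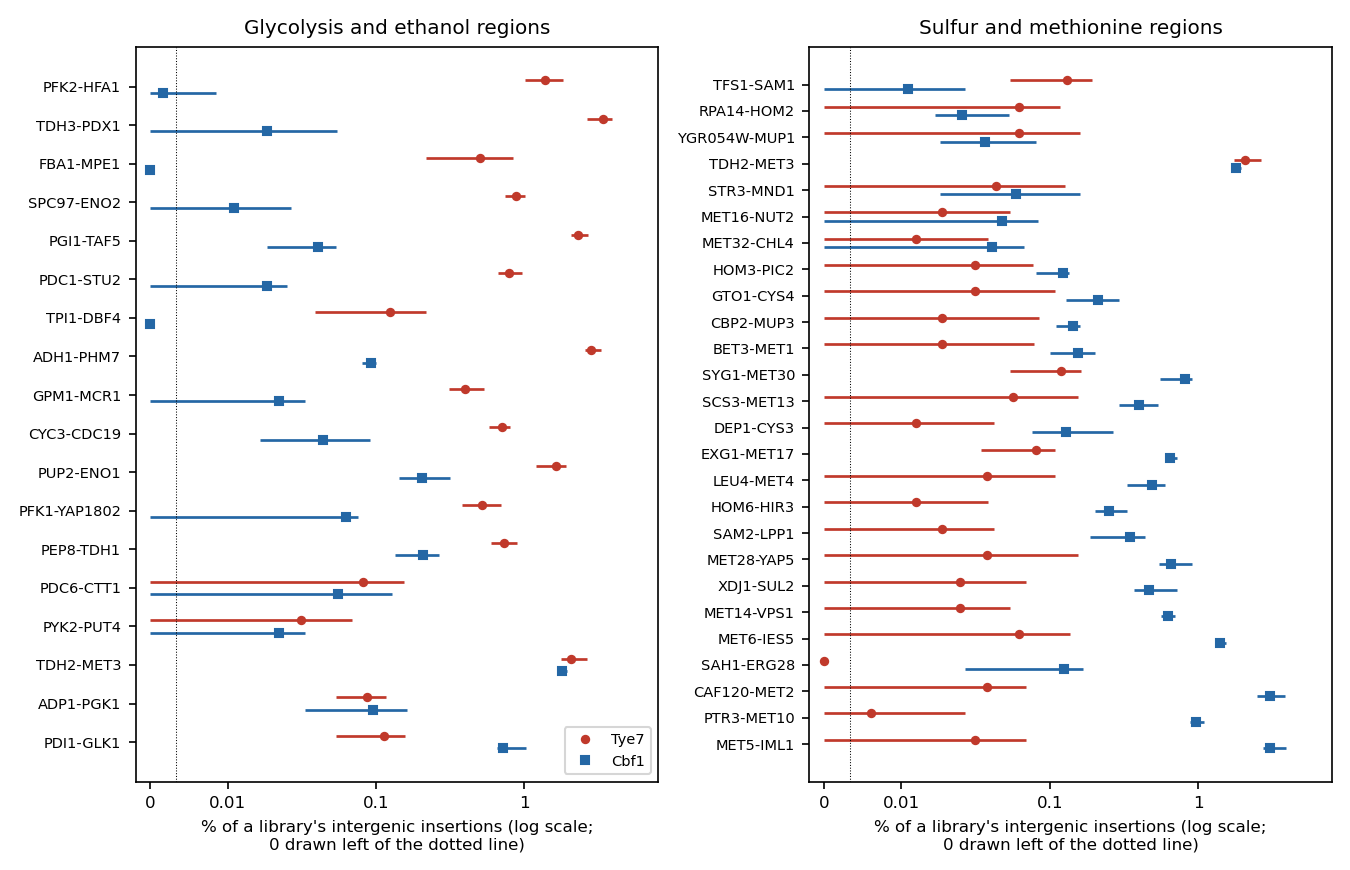
Share of intergenic insertions, on a log scale, in each tested region of the glycolysis list (left) and the sulfur list (right), with Tye7 above Cbf1 in each row; markers are whole libraries and lines run from the lowest to the highest run. Of the glycolysis regions 13 have lines of Tye7 wholly to the right of those of Cbf1, and PDI1-GLK1 at the bottom has the reverse, while 19 sulfur regions have Tye7 wholly to the left.

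Glycerol formation branches off glycolysis, and 2 of its regions were bound by Tye7 and called higher. VHR1-GPP1, upstream of a glycerol phosphatase, held 198 insertions of Tye7 and 19 of Cbf1 (ratio 17.7, 11 to 30; exact test, adjusted p 1.64e-61). MAM3-GPD2, upstream of a glycerol-3-phosphate dehydrogenase, held 65 and 9 (ratio 12.3, 6.07 to 28). Its paralogue GPD1 differed: DIA3-GPD1 held 32 and 40, was not called and was bound by Cbf1 alone. The list of 8 genes had 5 tested regions, 3 higher (60%, against 27% over all regions) and 0 lower, and a median log2 ratio of 2.57. Scaling on regions bound in neither gave 2 higher and 1 lower. Merging left 0 higher, with log2 ratios of 0.59 at VHR1-GPP1 (adjusted p 0.49 in the exact test) and 0.99 at MAM3-GPD2 (adjusted p 0.262).

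Among the intergenic regions of the authors' tables, those bound by Tye7 outside these lists were few. ECM32-BMH1, upstream of a 14-3-3 protein (chromosome 5, 545050 to 545606), held 233 insertions of Tye7 and 48 of Cbf1, a share 8.23 times as large in Tye7 (6.01 to 11.5, with an adjusted p of 6.83e-55 in the exact test). Merging ended this call, with a log2 ratio of 0.29 (exact test, adjusted p 0.796). GPI2-GCR1, upstream of the activator of glycolytic genes Gcr1 (chromosome 16, 411282 to 412251), held 67 and 6, with Tye7 runs at 0.215 to 0.54% and Cbf1 runs at 0 to 0.0366%. Among 13 regulator genes 8 regions were tested, 2 higher (25%, near the 27% over all regions) and 2 lower, with a median log2 ratio of 1.15. The region of TYE7 itself, TYE7-REV1, held 48 and 237 insertions and was lower in Tye7 (2.91-fold, 2.13 to 4.06; exact test, adjusted p 8.91e-13). PTK2-CBF1, upstream of CBF1, held 4 and 87 and was lower too (12.8-fold, 4.83 to 48.1). Merging ended both calls, with log2 ratios of 0.40 at TYE7-REV1 and -1.55 at PTK2-CBF1.

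Positions inside regions show where each factor left its marks. In the 11 Tye7-bound regions that serve 1 promoter the median distance upstream of the gene start lay between 265 and 623 bp, with a median of 416 bp over the regions. Of 167 regions bound by Cbf1 with 10 or more insertions upstream of a gene, 83 serve 1 promoter. Their median distances ran from 75 to 4721 bp, with a median of 278 bp over the regions. Quartiles of these medians were 194 and 454 bp in Cbf1 and 327 and 530 bp in Tye7. Tye7 marks were tightest at FBA1, with 81.2% in the fullest 100 bp and a median of 309 bp upstream, and at PFK2, with 76% and 416 bp. TDH3 had its median at 334 bp and ENO2 at 321 bp, while CDC19, PFK1 and GPP1 had theirs at 532, 623 and 571 bp. PGI1-TAF5 had marks in separate groups: 27.6% at 200 to 300 bp, 26.6% at 400 to 500 bp and 27.1% at 1100 to 1500 bp from the PGI1 start. Insertions of 1 library are not independent samples, and these distances carry no test.

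Positions of the 2 libraries were compared in the 3 regions bound in both and in some regions bound in 1 library alone. The stretches given, as those of PGI1-TAF5, were chosen after the positions were seen, so differences in them are descriptions and no test. TDH2-MET3 is a divergent promoter of 1559 bp with the TDH2 start at its left edge and the MET3 start, for ATP sulfurylase, at its right edge. Of the 333 Tye7 insertions 264 (79.3%, runs at 72.7 to 86.2%) lay 200 to 400 bp from TDH2, and 2.7% lay beyond 800 bp, on the MET3 side. Cbf1 placed 258 of 487 (53%, runs at 47.1 to 62.9%) at 1100 to 1300 bp from TDH2, where Tye7 placed 1.8%. A second group of 151 Cbf1 insertions (31%) lay 300 to 600 bp from TDH2, beside 49.8% of Tye7. A similar share of the whole region thus came from unlike positions: the TDH2 side for Tye7, and mostly the MET3 side for Cbf1.

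PEP8-TDH1 and ECM32-BMH1, the other regions bound in both libraries, also differed inside. In PEP8-TDH1 the stretch 500 to 800 bp from the PEP8 end held 70.9% of Tye7 insertions (runs at 56.2 to 90.9%) and 33.9% of Cbf1 insertions (runs at 18.2 to 43.8%). The stretch 900 to 1100 bp, nearer the TDH1 start, held 6.84% and 50%. In ECM32-BMH1 the first 200 bp after ECM32 held 39.1% of Tye7 and 79.2% of Cbf1 insertions, the farther side from BMH1. The further regions were bound in 1 library alone. Cbf1 did not bind PUP2-ENO1 or ADH1-PHM7, where its shares were 1.17 times and 1 time background. PUP2-ENO1 had 46.7% of Tye7 insertions and 3.64% of Cbf1 insertions at 1400 to 1600 bp from PUP2, close to ENO1. At 1000 to 1200 bp it had 25.7% and 72.7%. ADH1-PHM7 had 88.5% of Tye7 and 24% of Cbf1 insertions within 900 bp of the ADH1 start. That region serves PHM7, a gene of the phosphate list, as well, and the Tye7 insertions were on the ADH1 side of it. In TYE7-REV1, bound by Cbf1 and not by Tye7, Cbf1 placed 93.7% at 900 to 1300 bp from the TYE7 start. Tye7 placed 25% there, its 48 insertions being spread along the region. Positions were alike in VHR1-GPP1 and PFK1-YAP1802, where Cbf1 left few insertions, at 0.527 and 0.593 times background. The stretch 2500 to 2700 bp from VHR1 held 56.1% of 198 Tye7 and 57.9% of 19 Cbf1 insertions. Medians upstream of PFK1 were 623 and 622 bp. Whether a factor directed the insertions in a region it did not bind was not tested.

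**Figure D3:**
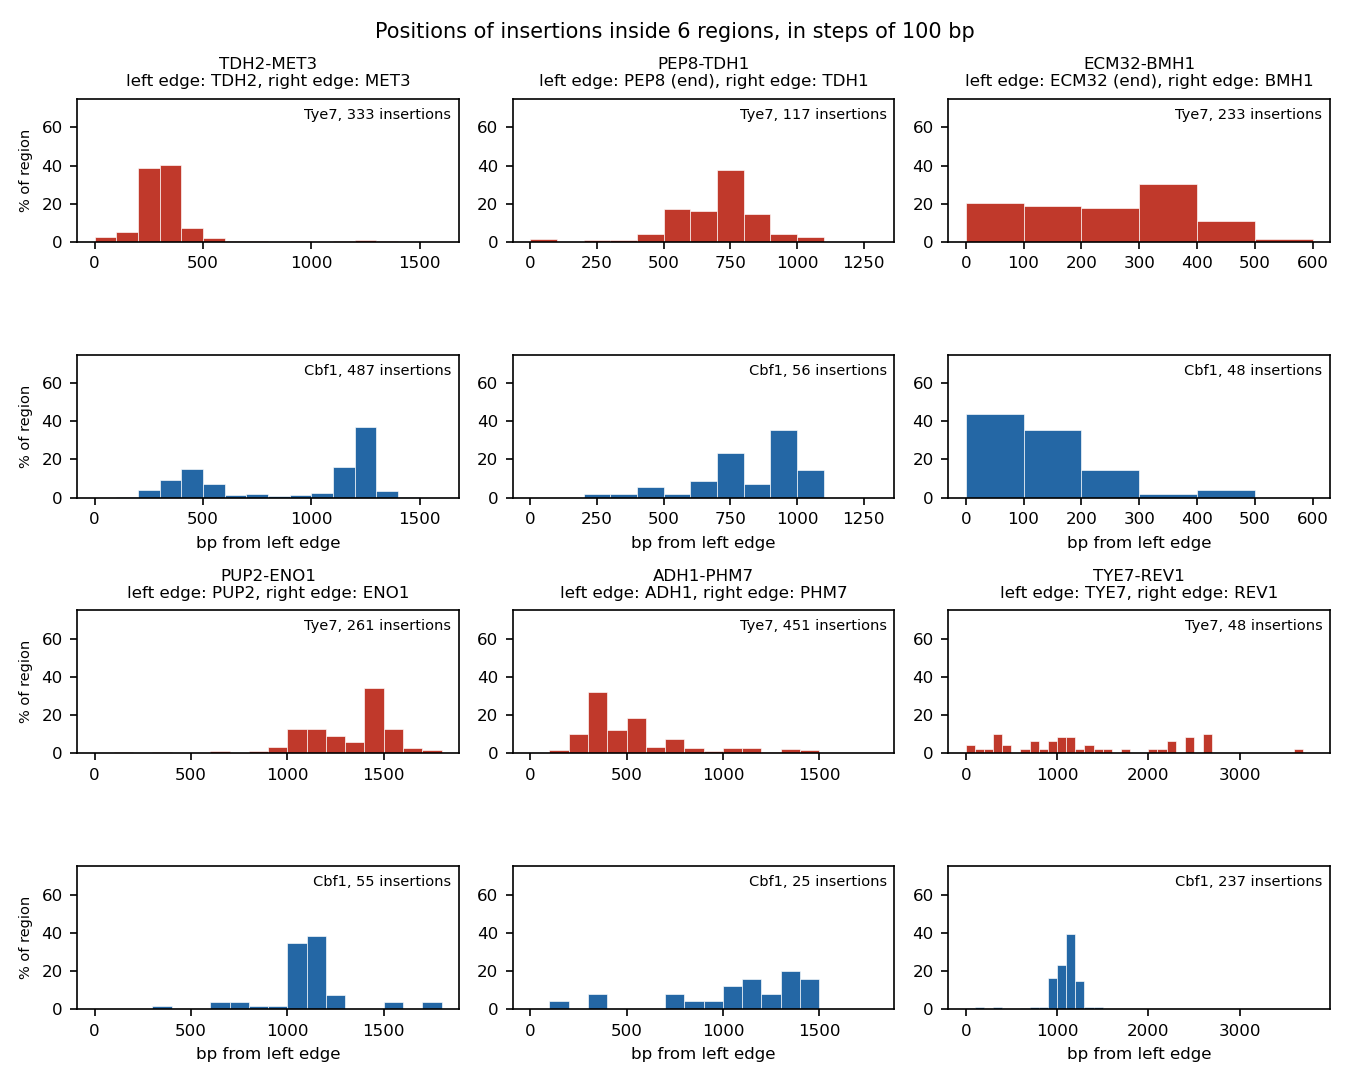
Share of a region's insertions (vertical, in percent) in steps of 100 bp from the left edge of the region (horizontal), for 6 regions, with Tye7 above Cbf1; "end" marks a gene that finishes at the left edge. In TDH2-MET3 the Tye7 bars stand at 200 to 400 bp and the highest Cbf1 bars at 1100 to 1300 bp; in TYE7-REV1 the Cbf1 bars gather at 900 to 1300 bp.

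Genes of sulfate assimilation and methionine synthesis stood on the other side. Of 36 regions for this list 26 were tested. In Tye7 19 were lower (73.1%, against 19.9% over all tested regions) and 1 higher (3.85%, against 27%). The median log2 ratio was -2.76, against 0.76 over all tested regions. Merging left 10 lower of 24 tested, with DEP1-CYS3 and SAH1-ERG28 under the minimum. The calls that ended were those of MET6-IES5 (log2 ratio -0.88), SCS3-MET13 (-1.25), HOM3-PIC2 (-1.49), MET28-YAP5 (-1.53), HOM6-HIR3 and XDJ1-SUL2 (both -1.75) and CBP2-MUP3 (-1.97). Its share was 3.15% in Tye7 (2.88 to 3.43) and 16.2% in Cbf1 (15.7 to 16.6), beside 1.31% of the background set. Without TDH2-MET3, which is also on the glycolysis list, the shares were 1.07% and 14.4%. The Tye7 share then lay below that of the background set, 1.27%, as did its share in regions bound in neither, 71.2% against 90.3%. Cbf1 bound 22 of the regions.

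Uptake and reduction of sulfate came first along the pathway. XDJ1-SUL2, upstream of a sulfate permease, held 4 insertions of Tye7 and 127 of Cbf1, and MET14-VPS1, upstream of the kinase that follows ATP sulfurylase, held 4 and 169. MET16-NUT2, upstream of the next reductase, held 3 and 13 and was bound by Cbf1, with no call. Sulfite reductase had the widest gaps: MET5-IML1 (chromosome 10, 683276 to 684558) held 5 and 827, and PTR3-MET10 (chromosome 6, 212961 to 213300) held 1 and 263. Tye7 was 97.5-fold lower in MET5-IML1 (41.6 to 301; exact test, adjusted p 1.78e-156), where Cbf1 runs reached 2.76 to 3.94%. BET3-MET1, upstream of an enzyme that makes the siroheme of sulfite reductase, held 3 and 42.

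Synthesis of homocysteine and methionine had 6 regions lower in Tye7 and 1 with no call. CAF120-MET2, upstream of homoserine acetyltransferase (chromosome 14, 116453 to 117349), held 6 insertions of Tye7 and 825 of Cbf1, or 0.0375% and 3.04%. EXG1-MET17 held 13 and 176, with the Cbf1 median 1866 bp upstream of the MET17 gene that BY4741 lacks. MET6-IES5, upstream of methionine synthase, held 10 and 382, and SCS3-MET13, upstream of methylenetetrahydrofolate reductase, held 9 and 109. The aspartate branch that supplies homoserine was used less: HOM6-HIR3 held 2 and 68 and HOM3-PIC2 5 and 33, both lower, while RPA14-HOM2 held 10 and 7 with no call.

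Genes that turn methionine over gave the list's exception. SAM2-LPP1 held 3 insertions of Tye7 and 95 of Cbf1, and SAH1-ERG28 held 0 and 34, at least 6.68-fold lower. TFS1-SAM1, upstream of the other S-adenosylmethionine synthetase, held 21 and 3 and was the 1 sulfur region called higher (ratio 11.9, 3.55 to 62.2; exact test, adjusted p 4.03e-06). Neither library bound it over background, and its paralogous partner SAM2 had the opposite call. Cysteine synthesis had DEP1-CYS3 with 2 and 35 and GTO1-CYS4 with 5 and 57, both lower, while STR3-MND1 held 7 and 16 with no call. The methionine permease gene MUP3 had 3 and 39 in CBP2-MUP3, lower, and MUP1 had 10 and 10 with no call.

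Regulators of the sulfur genes were themselves among the regions with more Cbf1. SYG1-MET30, upstream of the F-box protein that restrains Met4, held 19 insertions of Tye7 and 220 of Cbf1. MET28-YAP5, upstream of a partner of Cbf1 and Met4, held 6 and 177, and LEU4-MET4 held 6 and 133 (13.1-fold lower, 5.85 to 36.2; exact test, adjusted p 1.04e-18). MET32-CHL4 held 2 and 11 and was not called.

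The fullest intergenic region of Cbf1 belonged to the citric acid cycle list. IDH1-NCE103, between a subunit of isocitrate dehydrogenase and carbonic anhydrase (chromosome 14, 559003 to 559815), held 8 insertions of Tye7 and 1099 of Cbf1, or 0.05% and 4.05%. Next in number of Cbf1 insertions came the sulfur regions MET5-IML1 and CAF120-MET2. LPD1-SMX2, upstream of the dihydrolipoamide dehydrogenase shared by several dehydrogenase complexes, held 1 and 387, and CIT1-ATO2, upstream of citrate synthase, 15 and 61. Merging ended the calls of IDH1-NCE103 (log2 ratio -1.06) and CIT1-ATO2 (-0.92). Of 9 tested regions of the citric acid cycle list 2 were higher (22.2%, against 27% over all regions) and 3 lower (33.3%, against 19.9%), with a median log2 ratio of 0.96, and the pooled shares were 0.581% and 5.89%. Scaled on regions bound in neither, 0 were higher and 3 lower. The respiratory chain list had 19 tested regions, 3 higher (15.8%) and 7 lower (36.8%), with a median of -0.56, and 0 higher and 9 lower on that scale. NDI1-NGL3, upstream of the internal NADH dehydrogenase, held 6 and 471, and ATP7-PUT3, upstream of an ATP synthase subunit, 2 and 461, while OSH7-QCR10, upstream of a subunit of complex III, held 4 and 36.

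Other regions that Cbf1 used and Tye7 hardly did lay outside the lists. PSR1-COX17, upstream of the phosphatase gene PSR1 (chromosome 12, 130612 to 131204), held 1 insertion of Tye7 and 369 of Cbf1. The Tye7 library left 0 insertions in YDJ1-MTQ1 beside 160 of Cbf1, 0 in GPI19-THI74 beside 140, and 0 in MET18-STH1 beside 123. YDJ1 encodes a J-domain chaperone and STH1 the motor of the RSC remodeller. At least 31.4-fold, 27.5-fold and 24.2-fold lower shares of Tye7 follow when 3 insertions are allowed to it.

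The phosphate list had more lower regions than the whole set. Of 10 tested regions 5 were lower (50%, against 19.9% over all regions) and 3 higher (30%, near the 27% over all regions), with a median log2 ratio of -1.28. Scaled on regions bound in neither, 6 were lower and 1 higher, ADH1-PHM7, whose Tye7 insertions lay on the ADH1 side. PHO84-GTR1, upstream of the high-affinity phosphate transporter, held 8 insertions of Tye7 and 387 of Cbf1 (28.5-fold lower, 14.3 to 66.5; exact test, adjusted p 2.52e-64). The region also serves GTR1, and most of its Cbf1 insertions lay nearer that gene. Their median was 329 bp from the GTR1 start and 802 bp from the PHO84 start. SPL2-ARO9, upstream of an inhibitor of low-affinity uptake, held 3 and 131. The pooled shares were 3.33% and 3.18%, and ADH1-PHM7 supplied 451 of the 532 Tye7 insertions.

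Centromeres are bound by Cbf1 in the cell, and 16 regions span one. Of 12 that were tested MET14-VPS1 alone was called, as lower in Tye7, and it is also upstream of a sulfur gene. The other 15 regions together held 0.919% of Tye7 insertions, 0.66% of Cbf1 insertions and 1.22% of the background set. IRC22-MNN1 held 18 and 41 and PRE3-AVT1 20 and 16, both with no call. As shares of all intergenic insertions, centromere regions were thus not above the background set in either library once MET14-VPS1 was left aside. Regions bound in neither held 31.6% of Cbf1 insertions against 90.3% of the background set. A Cbf1 share below background is therefore usual outside its bound regions. Whether Cbf1 used centromere regions above that lower level was not tested.

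Lists tied to other carbon sources had 17 tested regions, 8 called higher (47.1%, against 27% over all regions) and 1 lower (5.88%, against 19.9%). None of the higher ones was bound by Tye7. All 5 tested regions of the galactose list were higher in Tye7, but none was bound over background and in none were all runs apart. GAL7-GAL10 held 15 insertions of Tye7 and 6 of Cbf1, RIO1-GCY1 16 and 9, and PMU1-PGM1 13 and 3, and under scaling on regions bound in neither library 1 of the 5 was called. The hexose transport list had 6 tested regions and 1 higher (16.7%, below the 27% over all regions), HXT6-HXT3 with 12 and 6. EMP46-GAL2 with 10 and 21 and SCM3-RGT2 with 12 and 9 were not called. Near-identical hexose transporter copies can share reads, which makes HXT6-HXT3 uncertain. Among 6 tested regions of the alcohol and acetate list 2 were higher (33.3%) and 1 lower (16.7%), near the 27% and 19.9% over all regions. The lower one, ACS1-FLC2, upstream of an acetyl-CoA synthetase, held 5 and 237 (27.9-fold lower, 11.8 to 86.9; exact test, adjusted p 2.73e-39). ISF1-ADH3 held 40 and 75 and TIM50-ALD6 26 and 20, the second called higher with a log2 ratio of 1.12. Merging ended every higher call on these 3 lists and kept the lower one.

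Insertions outside the intergenic regions were compared in 4506 windows between neighbouring regions, 4397 of which hold 1 gene. The same exact test called 25 (13.7%) of 183 windows with 10 or more insertions as higher in Tye7 and 33 (18%) as lower, with totals taken over all windows. These totals include SCS3, described below, with 0.109% of the Tye7 and 20.2% of the Cbf1 insertions in windows. Its weight shifts the ratios of all other windows towards Tye7, and calls without it were not made. Among 100 tested windows of 1 gene 3 were higher and 30 lower, and 18 of the 30 lie next to a region that was lower too. The other 22 higher windows are stretches of more than 1 gene, which can hold sequence between genes, as are 3 of the lower ones. All 109 such stretches took 9.78% of the Tye7 library and 3.88% of the Cbf1 library. TPO3 to KRE6 held 298 and 24 insertions and IOC4 to NUP116 89 and 1, while NCE103 to SIW14 held 35 and 218. Such stretches were not compared with the background set, so the count of regions bound by Tye7 leaves them out.

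The coding sequence of SCS3, a gene of lipid metabolism just upstream of MET13 (chromosome 7, 271004 to 272144), was the fullest place of the Cbf1 library. It held 8 insertions of Tye7 and 1445 of Cbf1, more than any intergenic region of Cbf1, and was lower in Tye7 by a factor of 186 (94.1 to 431). Each of the 4 Cbf1 runs had between 276 and 508 insertions there, or 3.36 to 6.25% of the run, and no Tye7 run had more than 3. The Cbf1 insertions used 537 positions and were densest at 900 to 1000 bp from the SCS3 start, with 350 of them, in the part of the gene nearer to MET13. The 382 bp between SCS3 and MET13 held 9 and 109 insertions, so a count limited to intergenic sequence leaves most of the Cbf1 marks at this locus out.

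Coding windows with the next largest gaps held fewer insertions. SHU1 held 1 insertion of Tye7 and 125 of Cbf1, SCM4 held 2 and 158, TDP1 1 and 92, and IDH1 1 and 81. SHU1, SCM4 and IDH1 lie next to a region called lower, and TDP1 does not. It does lie next to PCS60-TDP1, which held 5 and 24 insertions and was bound by Cbf1. Of the 92 Cbf1 insertions in TDP1 71 lay within 200 bp of an edge of the window. The 3 windows of 1 gene with more Tye7 were SPC97 with 12 and 0, at the edge of the ENO2 promoter, ECM32 with 54 and 14, at the edge of the BMH1 promoter, and PRY3 with 18 and 5. Merging ended the calls of ECM32 (log2 ratio 0.89) and PRY3 (0.91). SPC97 and ECM32 thus lie beside regions that Tye7 bound. Windows of the deleted genes could not check the labels: SIR4 held 0 and 0, CBF1 held 2 and 2, and TYE7 lies inside a longer stretch.

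**Figure D4:**
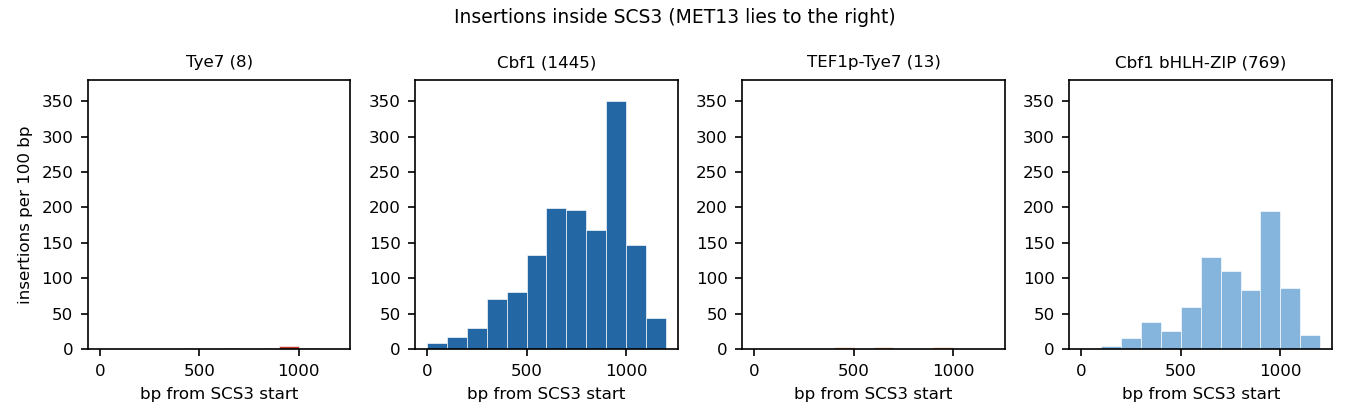
Insertions (vertical) per 100 bp along the SCS3 coding sequence (horizontal, bp from its start) in Tye7, Cbf1, TEF1p-Tye7 and Cbf1 bHLH-ZIP, with totals of 8, 1445, 13 and 769. In both Cbf1 libraries the highest bar stands at 900 to 1000 bp, with 350 and 195 insertions.

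The second pair of libraries shares no library with the first, and differs from it in promoter, strain genotype and protein length, so it is no replicate. TEF1p-Tye7 held 11455 insertions and Cbf1 bHLH-ZIP 10350. Of 212 regions tested there 43 (20.3%) were higher in TEF1p-Tye7 and 84 (39.6%) lower. All 16 regions that were higher and bound in Tye7 in the first pair were higher again, with a median log2 ratio of 5.46 beside 4.06 in the first pair. Of 147 regions that were lower and bound in Cbf1, 93 had enough insertions to be tested, and 80 were lower again, 0 higher and 13 not called. Of the 189 higher regions bound in neither library 41 could be tested and 21 were higher again.

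Single regions moved between the pairs. TDH3-PDX1 held 457 insertions of TEF1p-Tye7 and 1 of Cbf1 bHLH-ZIP, and TDH2-MET3 held 306 and 239, with no call in this pair either. PEP8-TDH1 held 334 and 23, a log2 ratio of 3.88 beside 1.81 in the first pair. ADH1-PHM7 held 52 and 6, a log2 ratio of 3.00 beside 4.88. MNT2-ADH4, upstream of an alcohol dehydrogenase gene on the alcohol and acetate list, held 535 and 5, against 27 of Tye7 and 18 of Cbf1 in the first pair, and was chosen for mention after its values were seen. SCS3 kept its place, with 13 insertions of TEF1p-Tye7 and 769 of Cbf1 bHLH-ZIP.

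**Figure D5:**
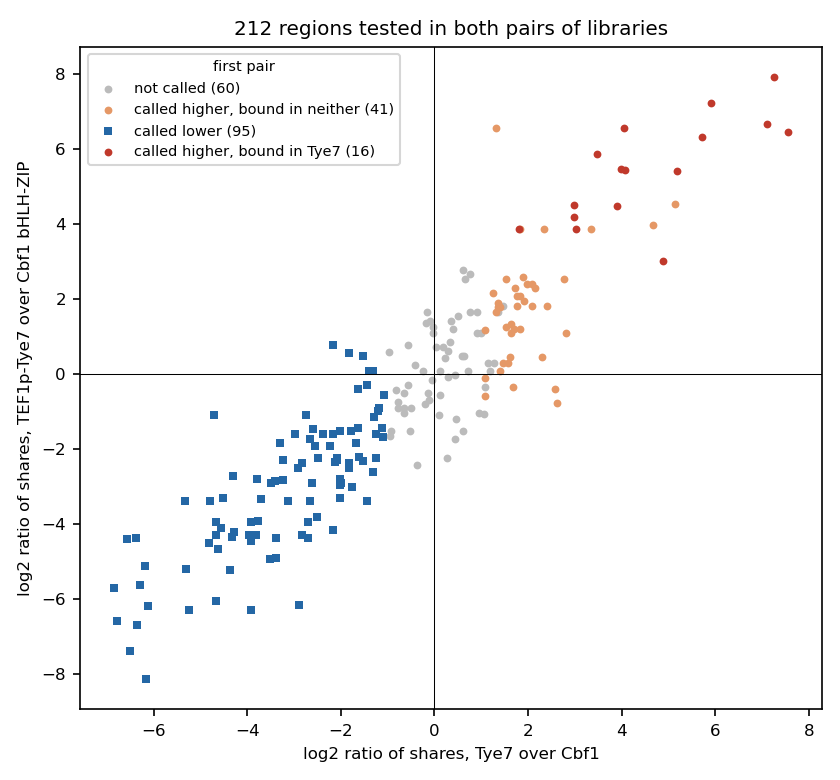
Log2 ratio of shares in each of 212 regions, Tye7 over Cbf1 (horizontal) and TEF1p-Tye7 over Cbf1 bHLH-ZIP (vertical), with 1 insertion added to each count; colours give the call in the first pair. The 16 regions called higher and bound in Tye7 lie above 0 on both axes, and of the 95 called lower 90 lie below 0 on both.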

How the data were processed

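Per the labels, genomic DNA was cut in separate digests with HinPI1, HpaII and Taq-alphaI, circularised and amplified by inverse PCR from Ty5. The submitters' processing notes name Novoalign; the sources used here give no genome build, and coordinates are those of the deposited tables. The authors deposited insertion lists with read counts and tables of counts of insertions (hops) per intergenic region for each library and a background set, with a Poisson p-value that the authors computed per region. Of 4657 gene identifiers 4656 matched RefSeq symbols (R64, names only). From the counts, shares, exact tests, log2 ratios (1 insertion added to each count) and Clopper-Pearson or conditional exact intervals were computed with Python 3.11.15, SciPy 1.17.1, NumPy 2.4.6 and pandas 2.3.3. The test was checked on simulated counts drawn without runs or repeated positions, so that check does not cover these features of the lists. A fold against 0 insertions is a bound computed with 3 insertions. The members and gene lists were chosen with earlier results of these data known.

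Named regions were all tested glycolysis and sulfur regions, the 10 largest bound calls in each direction, the 3 fullest regions of each other list, those bound in both libraries and, of windows of 1 gene, the 5 largest calls in each direction (3 existed among those higher). Stretches of more than 1 gene, some with larger ratios, were left out of the last step after their values were seen. Those given by their counts were picked with these values known. Calls used a minimum of 10 insertions in the pair, and windows lie between consecutive regions. The other libraries of the series were not used here.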

Additional observations from a re-analysis of the deposited data

How the results depend on the processing

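No paired analysis was possible because each group is 1 library. The 205 higher and 151 lower regions became 107 higher with a minimum of 20 insertions, 112 higher with a ratio of at least 4, 31 higher when scaled on regions bound in neither, 134 higher with 5 or more reads, 27 and 91 with positions within 5 bp merged, 101 higher with each position counted once (an alternative added after seeing the data) and 16 higher among regions bound in at least 1 library. The higher count therefore depends on the setting more than the lower count, which moved by over 1.5 times under merging alone. Windows became 7 higher and 21 lower under merging, and 4 higher when windows of 1 gene were tested alone, also added later. The second pair became 23 higher with a minimum of 20 and 24 higher with scaling on regions bound in neither. Leaving out each run in turn gave 155 to 197 higher and 126 to 148 lower regions, and 19 to 30 higher and 26 to 34 lower windows. Counts of bound regions stayed within 1.5 times, as did the other alternatives for each count.

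Of the 10 named bound regions in each direction, 9 and 9 kept their call under merging, which took VHR1-GPP1 to a log2 ratio of 0.59 and IDH1-NCE103 to -1.06, and all kept it under each other alternative. Over 81 named regions and windows, 1625 of 1738 values kept direction and call, 72 lost a call, 14 gained one and 27 changed sign. When scaled on regions bound in neither, log2 ratios were -0.96 at TDH2-MET3, -0.60 at PDC6-CTT1, -0.63 at PYK2-PUT4, -0.72 at DIA3-GPD1, -0.05 at TIM50-ALD6, -0.03 at SCM3-RGT2, -0.41 at YGR054W-MUP1 and -0.11 at PRE3-AVT1. Merging gave -0.63 at TDH2-MET3, -0.05 at PDC6-CTT1, -0.65 at PYK2-PUT4, -0.22 at DIA3-GPD1, 0.12 at ISF1-ADH3, -0.32 at YGR054W-MUP1, 0.40 at TYE7-REV1 and -0.04 at PRE3-AVT1. TDH2-MET3 stood at -0.01 as a share of all insertions and at -0.36 with each position counted once. EMP46-GAL2 stood at 0.02 with 2 or more reads, and ISF1-ADH3 and STR3-MND1 each at 0.03 with 5 or more. Without single runs, values ran from -0.31 to 0.06 at ISF1-ADH3, -0.44 to 0.01 at EMP46-GAL2, -0.34 to 0.13 at ADP1-PGK1 and -0.77 to 0.09 at STR3-MND1. Of these, TIM50-ALD6 and TYE7-REV1 were called in the text. Merging caps how many insertions a stretch can hold, which lowers the fullest regions most. The causes of the other changes were not tested. With 8003 and 7632 insertions outside regions, most genes held too few to compare.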
